A study of Mus musculus with 12 samples.

Results

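Ribosome biogenesis genes encode the nucleolar and nuclear factors that transcribe, modify, fold and cut ribosomal RNA and assemble it with ribosomal proteins. A list of 35 such genes was described in mouse natural killer (NK) cell lines, and 32 of them could be measured among 19938 genes that have a probe set paired with 1 gene symbol. Npm3 and Noc2l had no such probe set, and Ppan was read only by a probe set shared with B130055M24Rik. The samples were KY-2 and KY-1, 2 mouse NK cell lines that both carry the p53KO genotype and were grown in medium with 200 U/mL human IL-15, a cytokine that keeps NK cells alive and dividing. Cells of each line were transduced with GFP-P2A-FLAG-Myb, which gives green fluorescent protein and FLAG-tagged Myb from one transcript, or with GFP alone, and GFP+ cells were sorted before RNA was taken. There were 3 KY-2 Myb, 2 KY-2 GFP, 4 KY-1 Myb and 3 KY-1 GFP arrays. The sources used here do not name the promoter of the vector or say if a line is 1 clone. The study concerned Myb, a transcription factor of blood progenitors, as a target of microRNA-15/16 in NK cell maturation.

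Ribosome production starts in the nucleolus, where RNA polymerase I transcribes ribosomal DNA into a long precursor. Box C/D and box H/ACA ribonucleoproteins modify that precursor, the small subunit (SSU) processome releases and folds the part that becomes the 40S subunit, and a separate chain of factors matures the 60S subunit. These roles are known mainly from yeast and human cells. Activated lymphocytes enlarge their nucleoli before they divide, and the transcription factor Myc, which binds the E-box sequence CACGTG, is the best known driver of the genes described here.

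Promoter stretches are shown for the members whose E-box or Myb motif can be read against the measurements, with genes that were higher and genes that were lower in KY-2 among them. The sequences are from RefSeq (GRCm38.p6), run 5′ to 3′ on the strand of the gene, and were searched in a window of 250 bases before to 50 bases after each start site. The motif CACGTG, a palindrome, was found in 6 of 30 members with a promoter in the table (20.0%), which is 17.6% of their 34 promoters, and in 7.15% of all 32851 promoters there. Those 6 are shown as 30 bases around the motif, which is in capitals. Nop2 (chr6:125131811-125131840, + strand) and Wdr43 (chr17:71616220-71616249, + strand) were lower in KY-2 than in KY-1.
Nop2: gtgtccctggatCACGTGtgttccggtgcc
Wdr43: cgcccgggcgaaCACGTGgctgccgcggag
Mybbp1a (chr11:72441347-72441376, + strand), Pes1 (chr11:3963965-3963994, + strand) and Utp20 (chr10:88826765-88826794, − strand) were higher in KY-2.
Mybbp1a: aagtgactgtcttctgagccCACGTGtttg
Pes1: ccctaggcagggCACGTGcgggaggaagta
Utp20: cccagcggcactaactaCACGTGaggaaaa
Tsr1 (chr11:74898092-74898121, + strand) passed the test in no comparison.
Tsr1: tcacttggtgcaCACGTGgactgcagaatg
The motif was therefore present in members of both directions.

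The Myb motif was searched as CAACNG or TAACNG on both strands, in the same window. It was found in 15 of 30 members (50%) and in 49.7% of all promoters, and CACGTG is never itself a match. Of these members, Pes1, Utp20 and Gar1 were called higher in KY-2 with the Myb vector. Heatr1, Wdr75, Bysl, Nop14, Nop16 and Polr1b were called lower. Dkc1, Ncl, Tsr1, Wdr12 and Ddx21 were not called, and Ppan was not measured alone. Heatr1 and Wdr75 are shown because they encode partners in one complex, were both lower in KY-2, and hold 2 matches each, in capitals (CCGTTG and CAGTTA are matches on the other strand). The stretch of Heatr1 is chr13:12395175-12395374 on the + strand, and that of Wdr75 is chr1:45795036-45795165 on the + strand, both ending at the base before the start site.
Heatr1: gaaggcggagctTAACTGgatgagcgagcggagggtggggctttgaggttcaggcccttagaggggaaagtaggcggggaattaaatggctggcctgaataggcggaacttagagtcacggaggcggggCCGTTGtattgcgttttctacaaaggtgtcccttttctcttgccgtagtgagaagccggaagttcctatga
Wdr75: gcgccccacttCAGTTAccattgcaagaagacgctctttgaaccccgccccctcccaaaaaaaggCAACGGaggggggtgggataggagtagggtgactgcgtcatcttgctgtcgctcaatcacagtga
A match describes letters in the window, and binding was not measured.

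All arrays came from one table of log2 values normalized by the authors, with array medians between 5.31 and 5.42. The KY-1 arrays Myb 3 and 4, and likewise GFP 1 and 2, lay closer together than any other replicates (robust SD of their differences 0.0433 and 0.0469, against 0.102 to 0.172), and each pair was averaged to 1 replicate. This left 3 Myb and 2 GFP replicates per line. The labels do not tie replicates to separate cultures, and the p-values therefore reflect only sample-to-sample spread, part of which may be technical. Of 15 NK cell markers, 10 to 12 lay above a log2 level of 8 in each group, while Eomes was dim in KY-1 and Ncr1 in KY-2. Of 9 T cell markers, 3 lay above that level in both KY-2 groups (Cd3g, Cd8a and Cd28) and 0 in both KY-1 groups, with summed log2 levels of 63.0 to 64.7 on KY-2 arrays and 45.4 to 47.5 on KY-1 arrays. Markers of B cells, myeloid cells, and erythroid cells and megakaryocytes had 0 above that level in every group, and the mast cell and basophil list had 0 or 1 of 7, which was Kit. In bulk RNA, fewer cells that express a gene and less RNA per cell cannot be told apart.

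All 32 measured members had a mean log2 level above 7, and all lay above the array medians on every array. The mean level over the 12 arrays ran from 7.20 for Rrp12, a factor in export of the 40S precursor, 7.61 for Polr1b and 7.66 for Rrp9, a protein of the U3 particle, up to 11.32 for Npm1 (nucleophosmin), 11.57 for Fbl (fibrillarin) and 11.74 for Ncl (nucleolin). These levels describe the probe sets and give no order of transcript amounts, since probe sets differ in brightness for the same amount of RNA. The median over members lay at 9.35 to 9.47 in KY-2 Myb arrays, at 9.30 and 9.37 in KY-2 GFP arrays, at 9.52 to 9.56 in KY-1 Myb arrays and at 9.43 to 9.47 in KY-1 GFP arrays. The arrays of the 4 groups therefore covered a narrow range for the list as a whole, and the differences between the lines ran in both directions within it.

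With raised Myb, no measured member passed the test in either line, and Nop2 passed when both lines were averaged. Myb itself was checked first. It gave 9.80, 9.67 and 9.75 on the KY-2 Myb arrays, against 5.0 and 5.10 on the KY-2 GFP arrays. On KY-1 Myb arrays it gave 9.59, 9.57, 9.55 and 9.54, against 7.96, 7.92 and 8.04 on KY-1 GFP arrays. All Myb arrays lay above all GFP arrays, and KY-1 already had a high level with GFP alone. The difference was 4.69 ± 0.08 (log2, standard error) in KY-2 (limma adjusted p = 1.06e-10) and 1.58 ± 0.08 in KY-1 (limma adjusted p = 3.89e-06).

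None of the 32 members passed a limma adjusted p of 0.05 for Myb against GFP in KY-2 or in KY-1. Among all genes, 2.83% passed in KY-2 and 1.22% in KY-1. At an unadjusted p under 0.05 there was 1 member in KY-2 (Nop2) and 4 in KY-1 (Polr1b, Mybbp1a, Nop2 and Bop1), all with values above 0, where 13.2% of all genes in KY-2 and 11% in KY-1 lay under that p. The 3 smallest p in KY-2 belonged to Nop2 (0.28 ± 0.08, limma adjusted p = 0.119), Nop56 (0.15 ± 0.08, limma adjusted p = 0.474) and Nob1 (0.11 ± 0.08, limma adjusted p = 0.641). In KY-1 they belonged to Mybbp1a, Nop2 (0.21 ± 0.08, limma adjusted p = 0.355) and Polr1b (0.24 ± 0.09, limma adjusted p = 0.361). The median difference of the members was 0.03 in KY-2 and 0.08 in KY-1 on the log2 scale, beside 0.01 and −0.001 for all genes. The number of members whose Myb and GFP arrays did not overlap was 7 above and 4 below in KY-2 (31.0% of all genes), and 10 above and 0 below in KY-1 (19.0% of all genes). Differences had the same sign in both lines for 16 of 32 members (50%), beside 52.7% of all genes.

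The intervals show the precision of each difference, taken 1 gene at a time without adjustment for the number of genes. The 95% intervals of the members reached from −0.32 to 0.46 (log2) in KY-2, and from −0.40 to 0.44 in KY-1. The upper bounds correspond to 1.37-fold and 1.36-fold, and the lower bounds to 1.25-fold and 1.32-fold lower levels. These are the widest reaches over the members in each line, and they rest on the same sample-to-sample spread as the p-values.

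Nop2, an rRNA cytosine methyltransferase of 60S maturation, was the member that passed when both lines were averaged. It gave 8.55, 8.47 and 8.42 on KY-2 Myb arrays, against 8.22 and 8.18 on KY-2 GFP arrays. In KY-1 it gave 8.94, 8.87, 8.75 and 8.79 on Myb arrays, against 8.64, 8.66 and 8.65 on GFP arrays. In each line all Myb arrays lay above all GFP arrays. The averaged difference was 0.25 ± 0.06 (limma adjusted p = 0.0438), with 3.1% of all genes passing in that comparison, and 1.52% of all genes passing as higher. The call was lost in 10 of 19 alternative settings, with adjusted p between 0.00579 and 0.152, and among these were 9 of 10 settings that left out 1 replicate (all but KY-1 Myb arrays 3 and 4).

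Mybbp1a encodes a nucleolar protein first known for binding Myb. It gave 9.71, 9.81 and 9.84 on KY-2 Myb arrays, against 9.79 and 9.72 on KY-2 GFP arrays. In KY-1 it gave 9.55, 9.52, 9.48 and 9.54 on Myb arrays, against 9.27, 9.29 and 9.34 on GFP arrays. The KY-2 groups overlapped and the KY-1 groups did not. The difference was 0.03 ± 0.08 in KY-2 (limma adjusted p = 0.93) and 0.22 ± 0.08 in KY-1 (limma adjusted p = 0.311). With all 12 arrays taken as separate replicates the KY-1 value was 0.22 with a limma adjusted p of 0.0451. Averaged over lines it was 0.12 ± 0.05 (limma adjusted p = 0.337). Nop56 was next in that comparison, at 0.12 ± 0.06 (limma adjusted p = 0.36).

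The Myb effect itself was compared between the lines. None of the 32 members passed in that test and 0 had an unadjusted p under 0.05, while 0.843% of all genes passed after adjustment and 10.3% before it. The 3 members with the smallest p were Wdr74, a 60S factor, at −0.22 ± 0.10 (limma adjusted p = 0.486), Bop1, a scaffold of 60S maturation, at −0.24 ± 0.12 (limma adjusted p = 0.517), and Polr1b, the second largest subunit of RNA polymerase I, at −0.25 ± 0.13 (limma adjusted p = 0.557). Mybbp1a had −0.19 ± 0.11 (limma adjusted p = 0.604). With Myb against GFP, Wdr74 had −0.07 in KY-2 and 0.15 in KY-1, Polr1b had −0.01 in KY-2 and 0.24 in KY-1, and Bop1 had −0.05 in KY-2 and 0.20 in KY-1.

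**Figure D1:**
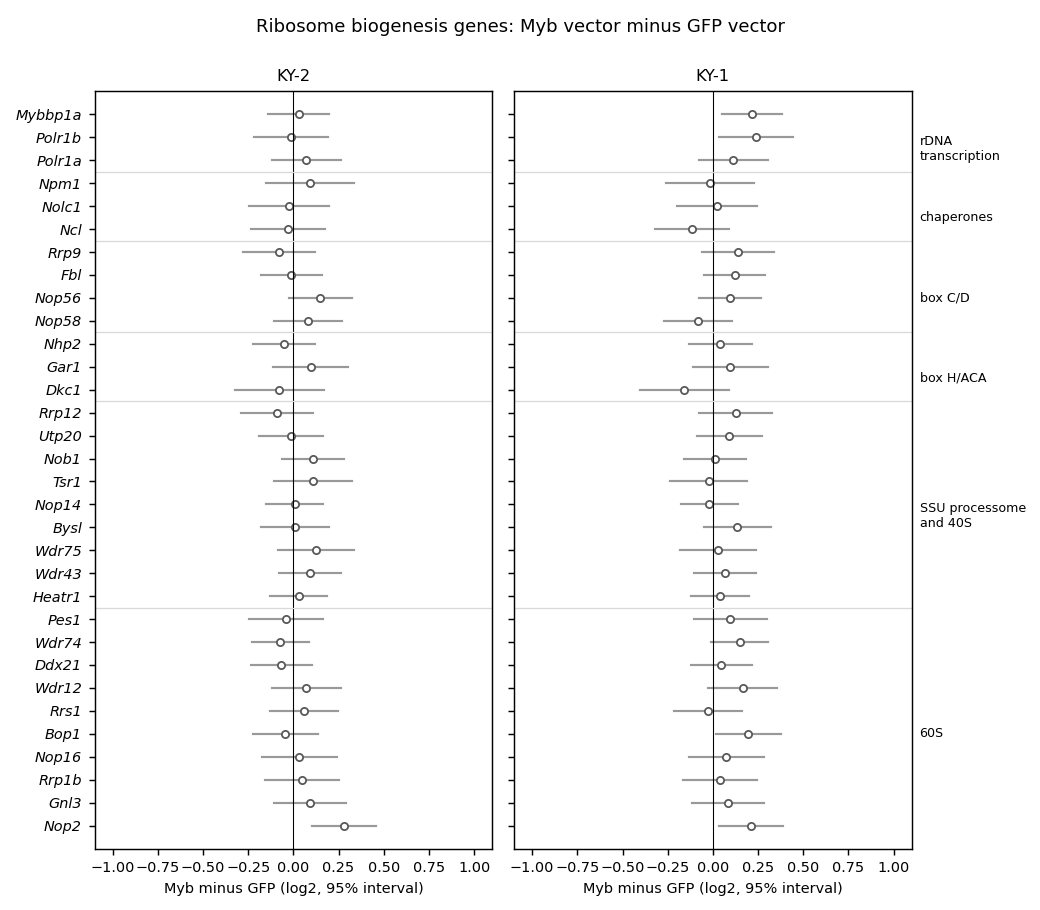
Difference of Myb minus GFP (log2, horizontal axis) for the 32 measured members in KY-2 (left) and KY-1 (right), ordered by role. Points are limma estimates, lines are 95% intervals, and open points did not pass an adjusted p of 0.05. All points are open, and the intervals stay between −0.40 and 0.46.

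The wider pathway gave nearly the same picture for Myb. Of 19 further genes of RNA polymerase I transcription, 47 of the SSU processome and 40S maturation, 50 of 60S maturation and export, 11 of ribonucleoprotein assembly, 16 of the exosome and other nucleases, 3 snoRNA host transcripts and 11 of the Myc and Max network, 0 of these 157 passed in KY-1 and 0 when both lines were averaged, while 13 (8.28%) and 15 (9.55%) had an unadjusted limma p under 0.05, beside 11% and 13.8% of all genes. In KY-2, where 2.83% of all genes passed, the 1 gene of the 157 to pass was Urb2, a nucleolar factor of early 60S assembly known from yeast. Its call was not followed through the alternative settings. Urb2 gave 8.91, 9.11 and 9.0 on KY-2 Myb arrays, against 8.66 and 8.63 on KY-2 GFP arrays, a difference of 0.37 ± 0.08 (limma adjusted p = 0.0456). In KY-2, 10 of the 157 (6.37%) had an unadjusted p under 0.05, beside 13.2% of all genes. The 11 assembly genes had values above 0 in 11 of 11 cases in KY-2 and 10 of 11 in KY-1, with medians of 0.11 and 0.14. Beside them, 10573 of 19938 genes in KY-2 and 9882 in KY-1 lay above 0, with medians of 0.01 and −0.001. None of the 11 passed, and a shared shift of this list was not tested.

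The lines themselves differed more, and in both directions. With the Myb vector, 22 of 32 members passed between KY-2 and KY-1 (68.8%), 8 higher and 14 lower in KY-2. With the GFP vector, 15 of 32 passed (46.9%), 6 higher and 9 lower. Across all genes, 31.6% passed with the Myb vector (14.7% higher, 16.9% lower) and 28.9% with the GFP vector (13.6% higher, 15.2% lower). The members were all brighter than most genes, and among the 6587 genes with a mean level above 7 the shares were 55.4% (23.5% higher, 31.9% lower) and 49.8% (23.1% higher, 26.7% lower), a background chosen after the data were seen. Beside those shares, the members' share was higher with the Myb vector and slightly lower with the GFP vector. No test compared the shares, and the background was not matched to the members' levels. The Myb count fell to as few as 13 of 32 when a replicate was left out. The members' median standard error was 0.077 with the Myb vector and 0.095 with the GFP vector, so precision differed between the vectors. An excess of the members, or a dependence of it on the vector, was therefore not shown.

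The members' median difference between the lines was −0.14 with the Myb vector and −0.12 with the GFP vector (log2), beside −0.05 for the brighter genes in both. Arrays of the lines did not overlap for 8 members above and 17 below with the Myb vector (39.9% of all genes), and for 11 above and 18 below with the GFP vector (57.4% of all genes). All 15 calls of the GFP comparison were also calls of the Myb comparison in the same direction, which is every GFP call and 68.2% of the Myb calls. Across all genes, 2214 were called higher and 2316 lower in both comparisons, out of 5757 GFP calls and 6305 Myb calls. Sharing of calls was thus common among all genes, and no test compared the members with them. These comparisons share no arrays. Across the 32 members the differences had a Pearson r of 0.947 and a Spearman rho of 0.915 (0.904 and 0.743 across all genes), a description over genes of the same 2 lines on one normalization. The shares of non-overlap and the correlations are set beside all genes, most of them dimmer than the members. They were not computed for the brighter genes.

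**Figure D2:**
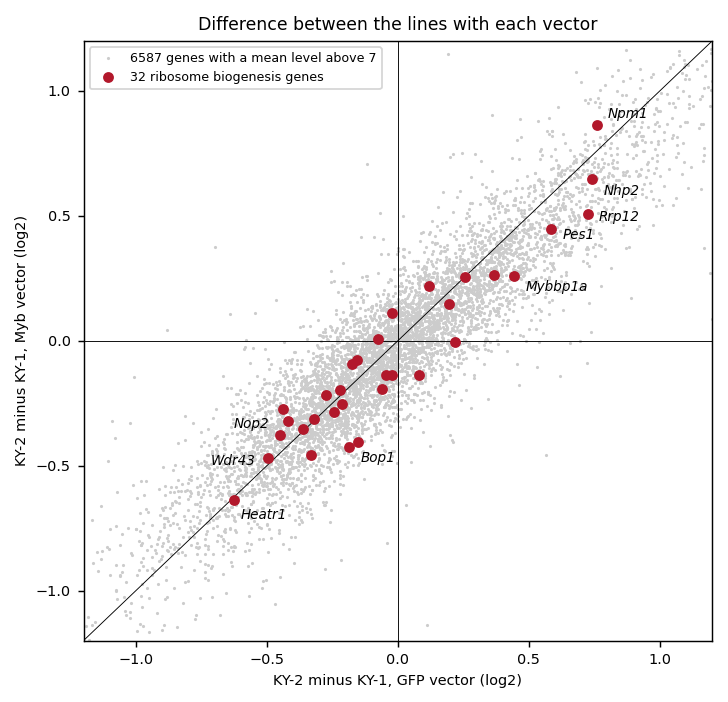
Difference of KY-2 minus KY-1 (log2) with the GFP vector on the horizontal axis and with the Myb vector on the vertical axis. Large points are the 32 members, small points are the 6587 genes with a mean level above 7, of which 333 lie outside the axes, and the diagonal marks equal differences. Npm1, Nhp2, Rrp12 and Pes1 lie at the upper right, and Heatr1, Wdr43 and Nop2 at the lower left.

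Counts of called members depended on single replicates. Leaving out a replicate lowers the precision for every gene. The counts below stand without the share of all genes called in the same settings, so they do not set the members apart from other genes. Without KY-2 Myb replicate 1 the Myb comparison called 13 members, 6 higher and 7 lower. Without KY-1 GFP replicates 1 and 2, and likewise without KY-2 GFP replicate 1, the GFP comparison called 9, with 5 higher and 4 lower, and without KY-2 GFP replicate 2 it called 10, with 6 higher and 4 lower. Centring each array on its median turned the GFP split to 8 higher and 5 lower. Of the individual calls, 11 of 22 with the Myb vector and 9 of 15 with the GFP vector were made in all 20 alternatives, and 0 members among them changed sign. With all replicates kept, markers of other cells also differed between the lines. Beside their counts stand 31.6% of all genes called with the Myb vector and 28.9% with the GFP vector. Of 9 T cell markers, 4 were higher and 0 lower in KY-2 with the Myb vector, and 4 were higher and 1 lower (Cd3e, at −0.90) with the GFP vector. Of 7 mast cell and basophil markers, 0 were higher and 3 lower with each vector, namely Kit (−2.43 with Myb, −2.32 with GFP), Mcpt8 (−3.00 and −1.06) and Cpa3 (−1.74 and −1.21). The summed log2 level of that list was 29.8 to 30.7 on KY-2 arrays and 34.9 to 38.7 on KY-1 arrays. Of 15 NK cell markers, 5 were higher and 8 lower with the Myb vector, and 5 higher and 7 lower with the GFP vector. The part of these markers in the members' differences was not tested.

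Genes of ribosomal DNA transcription split. Mybbp1a was higher in KY-2, by 0.26 ± 0.07 with the Myb vector (limma adjusted p = 0.0132) and by 0.44 ± 0.08 with the GFP vector (limma adjusted p = 0.00194), where KY-2 gave 9.79 and 9.72 against 9.27, 9.29 and 9.34 in KY-1. Leaving out KY-2 Myb replicate 3 ended the first of these calls, with an adjusted p of 0.0544. The 2 largest subunits of RNA polymerase I were lower in KY-2 with the Myb vector, Polr1b at −0.41 ± 0.08 and Polr1a at −0.25 ± 0.08 (log2). Polr1b gave 7.32, 7.54 and 7.41 on KY-2 Myb arrays, against 7.88, 7.73, 7.91 and 7.85 on KY-1 Myb arrays. With the GFP vector the differences were −0.15 ± 0.10 and −0.21 ± 0.10, and neither passed.

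Among the nucleolar chaperones, Npm1 was the member with the largest difference. Nucleophosmin, its product, is an abundant nucleolar protein that binds ribosomal proteins and histones. Npm1 gave 11.70, 11.86 and 11.90 on KY-2 Myb arrays, against 11.03, 10.76, 11.09 and 11.09 on KY-1 Myb arrays. With the GFP vector it gave 11.66 and 11.80 in KY-2, against 10.96, 10.95 and 10.99 in KY-1. Every KY-2 array lay above every KY-1 array. The difference was 0.86 ± 0.10 with the Myb vector, a 1.82-fold higher level (limma adjusted p = 4.55e-05), and 0.76 ± 0.12 with the GFP vector, 1.69-fold (limma adjusted p = 0.000646). Ncl, nucleolin, was at 0.01 ± 0.08 and −0.08 ± 0.10 in the same comparisons, and Nolc1, a chaperone of small nucleolar particles, at 0.15 ± 0.09 and 0.19 ± 0.11, and none of these passed.

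**Figure D3:**
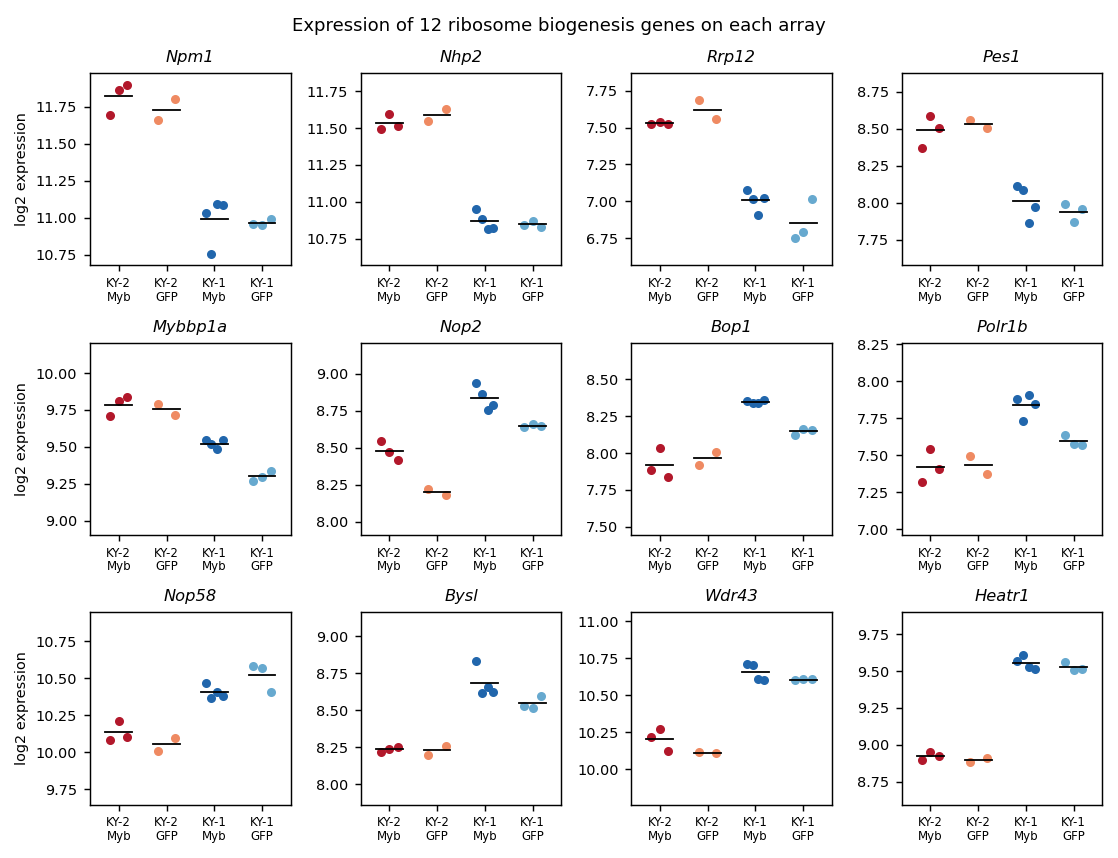
Log2 expression of 12 members on each array (vertical axis), by group from KY-2 Myb and KY-2 GFP to KY-1 Myb and KY-1 GFP. Each point is 1 array, bars are means over arrays, and every panel spans 1.3 log2 units. Npm1, Nhp2, Rrp12, Pes1 and Mybbp1a lie higher on all KY-2 arrays, and Heatr1, Wdr43, Bysl, Nop58, Nop2, Bop1 and Polr1b lie lower on them.

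Among the modifying particles, the few calls were lower in KY-2 for Nop58 and Nop56 of box C/D. They were higher for Nhp2 of box H/ACA and, with the Myb vector alone, for Gar1. A difference between the particle types was not tested. In box C/D particles, which guide ribose methylation, Nop58 and Nop56 were lower in KY-2 with both vectors. Nop58 gave 10.08, 10.21 and 10.11 on KY-2 Myb arrays, against 10.47, 10.37, 10.41 and 10.38 on KY-1 Myb arrays. It gave 10.01 and 10.10 on KY-2 GFP arrays, against 10.59, 10.57 and 10.41 on KY-1 GFP arrays. All KY-2 arrays lay below all KY-1 arrays, by −0.28 ± 0.08 (limma adjusted p = 0.017) and −0.44 ± 0.09 (limma adjusted p = 0.00443). Nop56 differed at −0.22 ± 0.07 and −0.27 ± 0.09 (limma adjusted p = 0.0333 and 0.0323). Fibrillarin, the methyltransferase encoded by Fbl, had values of −0.19 ± 0.07 and −0.06 ± 0.08, and Rrp9 of −0.14 ± 0.08 and 0.08 ± 0.10, none of which passed.

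In box H/ACA particles, which guide pseudouridylation, no member passed the test as lower in KY-2. Nhp2, a core protein of these particles and of telomerase, gave 11.49, 11.60 and 11.51 on KY-2 Myb arrays, against 10.96, 10.88, 10.82 and 10.83 on KY-1 Myb arrays. On GFP arrays it gave 11.55 and 11.63 in KY-2, against 10.85, 10.87 and 10.83 in KY-1. The groups stood well apart, at 0.65 ± 0.07 with the Myb vector, 1.57-fold (limma adjusted p = 3.02e-05), and 0.74 ± 0.09 with the GFP vector, 1.67-fold (limma adjusted p = 6.12e-05). Gar1, another core protein, was higher with the Myb vector by 0.26 ± 0.08 (limma adjusted p = 0.0391), a call lost in 9 of 20 alternatives, and had 0.25 ± 0.10 with the GFP vector (limma adjusted p = 0.0925). Dkc1, the pseudouridine synthase, had values of −0.08 ± 0.10 and −0.16 ± 0.12 and did not pass, though its KY-2 GFP arrays (9.49 and 9.53) lay below its KY-1 GFP arrays (9.68, 9.64 and 9.67).

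The SSU processome and 40S factors held the member with the largest lower value. Of 9 members, 3 were higher and 5 lower in KY-2 with the Myb vector, and 2 were higher and 4 lower with the GFP vector. These are 88.9% and 66.7% called, beside 31.6% and 28.9% of all genes. Among genes with a mean level above 7 the shares were 55.4% and 49.8%, and no test compared them. Heatr1, Wdr43 and Wdr75 belong to the subcomplex of the processome, known as UTP-A, that meets the precursor first and is tied to its transcription. Heatr1 gave 8.90, 8.95 and 8.93 on KY-2 Myb arrays, against 9.57, 9.61, 9.52 and 9.51 on KY-1 Myb arrays. It gave 8.88 and 8.91 on KY-2 GFP arrays, against 9.56, 9.51 and 9.52 on KY-1 GFP arrays. The gap between the lines far exceeded the spread within each, with differences of −0.64 ± 0.06, a 1.56-fold lower level (limma adjusted p = 1.76e-05), and −0.63 ± 0.08, 1.54-fold lower (limma adjusted p = 0.000121).

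Wdr43 followed with 10.22, 10.27 and 10.13 on KY-2 Myb arrays, against 10.71, 10.71, 10.61 and 10.60 on KY-1 Myb arrays. Both KY-2 GFP arrays gave 10.11, against 10.60, 10.61 and 10.61 on KY-1 GFP arrays. The differences were −0.47 ± 0.07 (limma adjusted p = 0.000328) and −0.49 ± 0.09 (limma adjusted p = 0.00113), and neither was lost in any alternative. Wdr75 differed at −0.32 ± 0.09 (limma adjusted p = 0.0133) and −0.42 ± 0.11 (limma adjusted p = 0.0111). The first call was lost without KY-1 Myb replicates 3 and 4 and without KY-2 Myb replicate 1 (adjusted p up to 0.0545), and the second was lost without KY-1 GFP replicates 1 and 2, without KY-2 GFP replicate 1 and without KY-2 GFP replicate 2 (adjusted p up to 0.0871). Another 2 genes of the same subcomplex, picked after their values were seen, were lower as well, Utp15 at −0.47 ± 0.08 and −0.41 ± 0.10, and Nol11 at −0.57 ± 0.11 and −0.52 ± 0.14. Utp4, also of that subcomplex, went the other way, at 0.27 ± 0.07 with the Myb vector (limma adjusted p = 0.0168) and 0.13 ± 0.09 with the GFP vector (limma adjusted p = 0.329).

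Later 40S factors were mixed. Bysl, which stays with the 40S precursor until it leaves the nucleus, gave 8.22, 8.24 and 8.25 on KY-2 Myb arrays, against 8.83, 8.61, 8.66 and 8.62 on KY-1 Myb arrays. It was lower in KY-2, at −0.46 ± 0.08 (limma adjusted p = 0.0007) and, with GFP, by −0.33 ± 0.09 (limma adjusted p = 0.0205), a call lost in 5 of 20 alternatives. Rrp12 went the other way. It gave 7.52, 7.54 and 7.53 on KY-2 Myb arrays, against 7.08, 7.02, 6.91 and 7.02 on KY-1 Myb arrays. On GFP arrays it gave 7.68 and 7.56 in KY-2, against 6.75, 6.79 and 7.02 in KY-1. No KY-2 array overlapped with KY-1, and the differences were 0.51 ± 0.08 (limma adjusted p = 0.000543) and 0.72 ± 0.10 (limma adjusted p = 0.000217).

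Utp20, a large repeat protein of the processome, was higher in KY-2 by 0.26 ± 0.07 (limma adjusted p = 0.0172) and 0.37 ± 0.09 (limma adjusted p = 0.00948). The first call was lost without KY-1 Myb replicates 3 and 4 and without KY-2 Myb replicate 2 (adjusted p up to 0.0635), and the second without KY-1 GFP replicates 1 and 2 and without KY-2 GFP replicate 1 (up to 0.0896). Nob1, the endonuclease that cuts the end of 18S rRNA, was higher by 0.22 ± 0.07 with the Myb vector (limma adjusted p = 0.0324) and had 0.12 ± 0.08 with the GFP vector. Nop14 was lower, at −0.20 ± 0.06 with the Myb vector (limma adjusted p = 0.0351) and had −0.22 ± 0.08 with the GFP vector (limma adjusted p = 0.0532). Tsr1, a GTPase-like factor of the late 40S precursor, had 0.11 ± 0.09 and −0.02 ± 0.11.

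Of 10 measured members of 60S maturation, 1 was higher and 5 lower in KY-2 with the Myb vector, and 1 was higher and 3 lower with the GFP vector. Pes1, Bop1 and Wdr12 encode the 3 subunits of the PeBoW complex, needed to process the 28S and 5.8S precursors, and they did not move together. Pes1 gave 8.37, 8.59 and 8.51 on KY-2 Myb arrays, against 8.12, 8.09, 7.86 and 7.97 on KY-1 Myb arrays. Bop1 gave 7.89, 8.04 and 7.84 on KY-2 Myb arrays, against 8.35, 8.34, 8.34 and 8.36 on KY-1 Myb arrays. Pes1 was thus higher in every KY-2 Myb array and Bop1 lower in every one, at 0.45 ± 0.08 (limma adjusted p = 0.0014) and −0.43 ± 0.07 (limma adjusted p = 0.000884).

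On GFP arrays Pes1 gave 8.56 and 8.50 in KY-2, against 7.99, 7.87 and 7.96 in KY-1, a difference of 0.59 ± 0.10 (limma adjusted p = 0.00107). Bop1 gave 7.92 and 8.01 on KY-2 GFP arrays, against 8.12, 8.16 and 8.16 on KY-1 GFP arrays, a difference of −0.19 ± 0.09 that did not pass (limma adjusted p = 0.158). Wdr12, the third subunit, had −0.14 ± 0.08 and −0.04 ± 0.10 and did not pass. The Bop1 difference between vectors was that of the Myb effect given above, which did not pass either.

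The other 60S calls were lower in KY-2. Nop2 gave 8.55, 8.47 and 8.42 on KY-2 Myb arrays, against 8.94, 8.87, 8.75 and 8.79 on KY-1 Myb arrays, a difference of −0.38 ± 0.07 (limma adjusted p = 0.00182), and with GFP the difference was −0.45 ± 0.09 (limma adjusted p = 0.00264). Gnl3, the nucleolar GTPase nucleostemin, which is abundant in dividing cells, differed at −0.35 ± 0.08 and −0.36 ± 0.10 (limma adjusted p = 0.00556 and 0.0171). Rrp1b differed at −0.31 ± 0.08 and −0.32 ± 0.10 (limma adjusted p = 0.0137 and 0.0354). Nop16 was lower with the Myb vector, at −0.29 ± 0.08 (limma adjusted p = 0.0236) and had −0.24 ± 0.10 with the GFP vector. Wdr74, Rrs1, which brings the 5S particle into the 60S precursor, and the helicase gene Ddx21 passed in neither comparison, with values between −0.18 and 0.22.

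Several of the smaller calls between the lines ended when 1 replicate was left out. With the Myb vector this held for Nop14 (any Myb replicate or either KY-2 GFP replicate, limma adjusted p up to 0.111 over all alternatives) and for Gar1 (any KY-2 replicate of either vector, KY-1 Myb 1, or KY-1 Myb 3 and 4, up to 0.141). Nop56 lost its call without any KY-2 Myb replicate or KY-1 Myb 1 or 2 (up to 0.103), and Nob1 without any KY-2 Myb replicate, KY-1 Myb 1, or KY-1 Myb 3 and 4 (up to 0.108). Polr1a lost it without KY-2 Myb 1 or 2 or KY-1 Myb 1 or 2 (up to 0.0964), Nop16 without KY-2 Myb 1 or 3 or KY-1 Myb 1 or 2 (up to 0.0901), Nop58 without KY-2 Myb 1 or 3 or KY-1 Myb 1 (up to 0.0622), and Rrp1b without KY-2 Myb 1 (0.0561). With the GFP vector, leaving out any GFP replicate ended the calls of Nop56 (up to 0.159), Bysl (up to 0.118) and Rrp1b (up to 0.198), and leaving out either KY-2 replicate or KY-1 GFP 1 and 2 ended that of Gnl3 (up to 0.12). All of these kept their sign. The calls of Npm1, Nhp2, Rrp12, Pes1, Heatr1, Wdr43 and Nop2 were made in all 20 alternatives with both vectors.

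**Figure D4:**
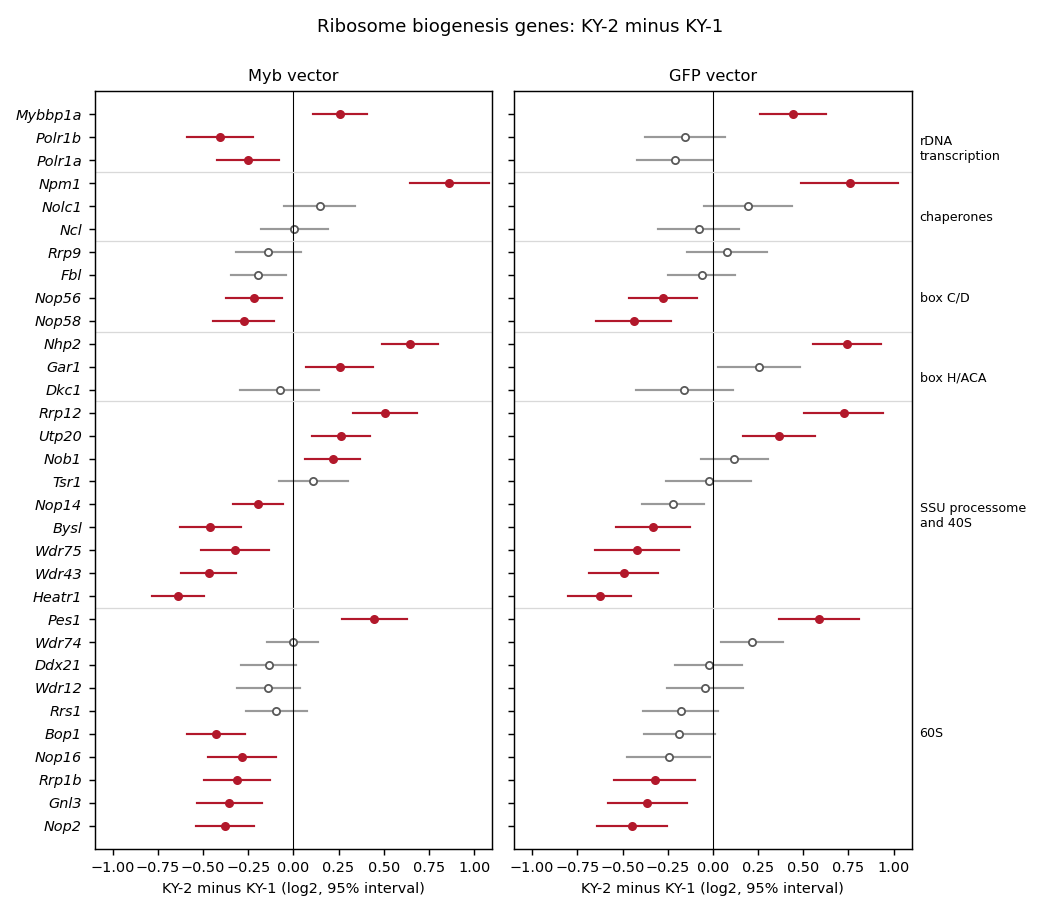
Difference of KY-2 minus KY-1 (log2, horizontal axis) for the 32 measured members with the Myb vector (left) and the GFP vector (right), ordered by role. Points are limma estimates, lines are 95% intervals, and filled points passed an adjusted p of 0.05. With the Myb vector 8 filled points lie above 0 and 14 below, and with the GFP vector 6 and 9.

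Further genes of the pathway, from lists chosen with earlier results of these arrays known, also differed between the lines in both directions. Beside the counts of these lists stand 31.6% of all genes with the Myb vector and 28.9% with the GFP vector. Among the 6587 genes with a mean level above 7 the shares were 55.4% and 49.8%. In RNA polymerase I transcription, 4 of 19 were higher and 5 lower in KY-2 with the Myb vector (47.4% called). With the GFP vector 5 were higher and 4 lower (47.4%). Rrn3, the factor that recruits the polymerase to ribosomal DNA, was higher by 1.22 ± 0.10 (limma adjusted p = 2.45e-06) and 1.11 ± 0.12 (limma adjusted p = 3.28e-05). The promoter selectivity factor was split, with Taf1b higher by 1.11 ± 0.08 and 1.05 ± 0.09 and Taf1a lower, at −0.77 ± 0.09 and −1.05 ± 0.11. Znrd1, a small subunit of the polymerase, was lower, at −0.76 ± 0.07 and −0.66 ± 0.08.

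In the SSU processome and 40S list, 7 of 47 were higher and 21 lower in KY-2 with the Myb vector (59.6% called). With the GFP vector 6 were higher and 15 lower (44.7%). The median was −0.17 and −0.08. Nol10 was higher by 1.12 ± 0.09 and 1.21 ± 0.11 and Pno1, a placeholder protein on the 40S precursor, by 0.80 ± 0.09 and 0.97 ± 0.11. The kinase gene Riok2 was lower, at −0.62 ± 0.07 and −0.56 ± 0.08, and the GTPase gene Bms1 at −0.54 ± 0.07 and −0.56 ± 0.08. In 60S maturation and export, 7 of 50 were higher and 18 lower with the Myb vector, and 6 higher and 16 lower with the GFP vector, with medians of −0.09 and −0.17. The ATPase gene Nvl was lower, at −0.87 ± 0.07 and −0.94 ± 0.09 and the SUMO protease gene Senp3 higher by 0.72 ± 0.08 and 0.68 ± 0.10.

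In ribonucleoprotein assembly, 2 of 11 were higher and 6 lower in KY-2 with the Myb vector (72.7% called). With the GFP vector 2 were higher and 3 lower (45.5%). Ruvbl2 and Ruvbl1, paired ATPases that assemble box C/D particles, were lower, at −0.81 ± 0.07 and −0.40 ± 0.07 with the Myb vector, and, at −0.90 ± 0.09 and −0.47 ± 0.08 with the GFP vector. Znhit6, which binds them, was higher by 0.66 ± 0.09 and 0.61 ± 0.11. In the list of the exosome and other nucleases, 2 of 16 were higher and 3 lower with the Myb vector (31.2% called). With the GFP vector 1 was higher and 2 lower (18.8%). Dis3 and Mtrex were lower with both vectors. Of 3 snoRNA host transcripts, 0 passed with the Myb vector and 1 was lower with the GFP vector, Snhg15 at −0.57 ± 0.14 (limma adjusted p = 0.00922).

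Myc and Mycn, members of the Myc and Max network, differed between the lines by more than any ribosome biogenesis gene on the list. Mycn gave 8.86, 8.96 and 9.05 on KY-2 Myb arrays, against 6.73, 6.81, 6.84 and 6.85 on KY-1 Myb arrays. Myc gave 10.13, 10.18 and 10.12 on KY-2 Myb arrays, against 11.72, 11.70, 11.75 and 11.78 on KY-1 Myb arrays. Mycn was thus higher in KY-2 by 2.16 ± 0.08 (limma adjusted p = 2.94e-09) and Myc lower, at −1.58 ± 0.07 (limma adjusted p = 1.72e-08), with values of 2.10 ± 0.09 and −1.47 ± 0.08 with GFP. In the whole network 2 of 11 were higher and 5 lower with the Myb vector (63.6% called), and 3 higher and 3 lower with the GFP vector (54.5%). With Myb against GFP none of the 11 passed in either line. The part of these genes in the members' differences was not tested.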

How the data were processed

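Total RNA of 12 samples was hybridised to single-colour Affymetrix arrays. The deposited values are log2 expression per probe set, made by the authors with Partek and RMA per the submitters' processing notes, without versions or options. RMA is a method of background correction, normalization between arrays and summary over probes. Values ran from 1.49 to 13.96, with no detection calls. Precision is limited by the number of arrays.

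Of 35556 probe sets, 21789 were paired with 1 symbol, 1621 with several and 12146 were not named by the annotation used. The brightest single-symbol probe set stood for each of 19938 genes. Close arrays (KY-1 GFP 1 and 2, KY-1 Myb 3 and 4) were averaged, which gave 10 replicates. One limma 3.58.1 model of the 4 group means (R 4.3.3) was fitted over all genes, with Benjamini-Hochberg adjustment and a threshold of 0.05. It was tested on simulated data. Errors on differences are standard errors, and intervals are at 95%. Fold values are the antilog of the differences. The KY-2 and KY-1 contrasts with each vector use separate arrays, with 1 residual variance per gene for both.

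The members and lists were chosen with earlier results of these data known, so no set test and no p over a list is given. Named genes were Myb, Mybbp1a, every call of a comparison or, beyond 10 calls, the 5 highest and 5 lowest, the 3 smallest p where fewer than 3 passed, the 3 brightest and 3 dimmest members, and up to 4 calls of each further list. The other members are given by value so that all are accounted for. Alternatives were all 12 arrays as separate replicates, a filter on dim genes, averaging over probe sets of a gene, median centring, a second quantile normalization, array weights, moderation with a trend or made robust, fitting only the compared arrays, a replicate block and leaving out each replicate.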

Additional observations from a re-analysis of the deposited data

Results flagged for a closer look

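Among 190 genes of the pathway and Myb examined for a difference of the Myb effect between the lines, 1 stood out, Myb itself. The Myb effect was larger in KY-2 than in KY-1 by 3.11 ± 0.11 on the log2 scale (limma adjusted p = 3.84e-07). With the Myb vector the lines gave 9.74 ± 0.07 in KY-2 and 9.57 ± 0.02 in KY-1 (SD, n = 3 each), and with GFP alone 5.05 ± 0.07 in KY-2 and 7.99 ± 0.07 in KY-1 (SD, n = 2 each). No group had enough replicates for a test of single outlying samples.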

How the results depend on the processing

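Among the members named by the rule above, 673 values kept their direction and side of the threshold, 16 calls were lost and 3 values passed under an alternative. Between the lines, this tally covers only Mybbp1a and the highest and lowest called differences. Most of the smaller calls are outside it, so 16 is not the total of lost calls. Of all 22 members called with the Myb vector, 11 lost their call in at least 1 alternative. Mybbp1a for Myb against GFP in KY-2 turned to −0.005 without KY-2 GFP replicate 2, with a range of −0.005 to 0.0686 when replicates were left out. For Myb against GFP, KY-1 gave 1 call with all 12 arrays as separate replicates (Mybbp1a), and KY-2 gave 1 (Nop2) with the filter on dim genes and 1 with trended moderation. Averaged over lines, the 1 call became 0 with median centring and lay between 0 and 1 when a replicate was left out. With median centring the median of the members was 0.12 in KY-1, −0.0896 for the difference of Myb effects and −0.0509 for KY-2 against KY-1 with GFP. When each replicate was left out, that median of the difference of Myb effects lay between −0.0732 and −0.0027, and that of the GFP comparison between −0.1335 and −0.0736. Calls between the lines then numbered 13 to 22 with the Myb vector and 9 to 15 with the GFP vector. Where this left 1 GFP sample in a line, it was assumed to vary like the other groups. A replicate block of the labels' numbers on all 12 arrays called 19 members between the lines with the Myb vector and 16 with GFP. Arrays with the same number were not more alike than others. On deviations from group means, 15 same-numbered pairs had correlations of −0.465 to 0.278 (median −0.049), and 38 other pairs −0.454 to 0.426. Some arrays of different groups were related across numbers. KY-1 GFP 1 had 0.395 and 0.389 with KY-1 Myb 3 and 4. KY-1 GFP 3 had 0.266 and 0.426 with KY-1 Myb 1 and 2, and −0.465 and −0.454 with Myb 3 and 4. These signs are tied, since deviations within a group sum to 0. A grouping across Myb and GFP arrays was not modelled. The causes of the changes between settings were not tested, and the counts are given without the share of all genes called in the same settings. Without detection calls, how far a dim signal lies above background is unknown.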

Other observations

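Probe sets that read a member together with another gene were fitted in the same model over all 35556 probe sets, an analysis added after the data were seen. The 3 probe sets shared by Npm1 and the gene model Gm15484 had mean levels of 11.87 to 12.20. All 3 were higher in KY-2 than in KY-1, by 0.49 to 0.57 with the Myb vector and by 0.42 to 0.43 with the GFP vector, and the largest limma adjusted p was 0.0369. These differences were smaller than those of the probe set that reads Npm1 alone. The probe set shared by Ppan, a factor of 60S assembly, and B130055M24Rik gave 0.06 ± 0.06 with the Myb vector and −0.05 ± 0.07 with the GFP vector, and for Myb against GFP 0.15 ± 0.07 in KY-2 and 0.04 ± 0.07 in KY-1, and none of these passed. Fbl and Wdr12 had 2 probe sets each. Those of Fbl differed between KY-2 and KY-1 Myb arrays by −0.19 and −0.16, and those of Wdr12 by −0.15 and 0.05.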
